A study of Mus musculus with 24 samples.

Results

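The 5′ UTR peaks of unirradiated WT cells were 492 regions of mRNA enriched with an antibody to N6-methyladenosine (m6A), chosen by their presence and position. A region was selected where peaks of all 3 WT Ctrl m6A immunoprecipitation (IP) libraries overlapped by at least 1 bp on the same strand. Its summit, taken from the library with the largest fold enrichment, had to lie in a 5′ UTR of a protein-coding transcript, in no CDS or 3′ UTR, and more than 200 bases from any stop codon. These 492 peaks made up 4.04% of the 12181 WT Ctrl peaks found in all 3 libraries, and they lay in 466 host genes, of which 26 held 2 such peaks. Of 612 summits in a 5′ UTR, 12 were within 200 bases of a stop codon, 107 lay in coding sequence of another transcript and 1 in a 3′ UTR. The peaks left out by the stop codon limit that lay nearest to it, with no other reason to leave them out, were those of Ost4, at 117 bases from a stop codon with WT Ctrl folds of 1.52, 1.48 and 1.41, and Taf9, at 9 bases with 2.96, 3.12 and 2.99. The nearest members inside it were those of Gm8797, at 247 bases with 2.24, 2.77 and 3.35, and Cul1, at 261 bases with 2.54, 2.12 and 2.81.

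The libraries came from CD11b+ myeloid cells sorted from MC38 tumours, a mouse colon carcinoma line, in C57BL/6J mice. WT mice carried floxed Ythdf2 alleles without Cre, and cKO mice carried them with Cre from the Lyz2 locus, which is active in macrophages, monocytes and neutrophils and which the insertion disrupts. Tumours were unirradiated (Ctrl) or received 20 Gy (IR), and cells were collected 3 days later. Each of the 4 conditions had 3 Input and 3 IP libraries, each from cells pooled from several mice, and the study's methods call these replicates technical in one place and biological in another. SEs and p-values therefore measure the spread between libraries.

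m6A is placed on adenosines of nascent mRNA by the METTL3 and METTL14 complex, mostly within a pentamer called DRACH, and is concentrated near stop codons and in long exons. In the 5′ UTR, m6A has been linked to cap-independent initiation of translation, and its level there rises on some stress-response transcripts. The antibody also recognises m6Am, a modified adenosine next to the mRNA cap, so signal at the very start of a transcript can come from that mark. YTHDF2 is a reader that binds m6A and recruits machinery for mRNA decay.

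The libraries held between 65180075 and 86421888 gene counts. In the WT Ctrl Inputs 5 pan-myeloid markers summed to 21987 to 22449 CPM (gene counts scaled to the total of their library) and 5 macrophage markers to 3647 to 3751 CPM. Most of the pan-myeloid sum was Lyz2 (20250 to 20794 CPM), and in the cKO Inputs the sum was 2101 to 2319 CPM. Of other cells in the WT Ctrl Inputs, 5 T cell markers summed to 1.98 to 2.27 CPM with Cd3e at 0, 5 epithelial markers to 6.42 to 8.05 CPM with Krt8, Krt18 and Krt19 at 0, 5 endothelial markers to 180 to 181 CPM and 5 platelet markers to 197 to 208 CPM. Lyz2 stood at 20056 to 21462 CPM in WT Inputs and at 296 to 414 CPM in cKO Inputs. The IR IP libraries went against this order, with 88.5 to 91.1 CPM in those labelled WT IR and 19517 to 19808 CPM in those labelled cKO IR. These 6 libraries are therefore named by label, and they entered no choice of a peak. Ythdf2 counts were higher in the Inputs labelled cKO (174 to 231 CPM) than in the WT Inputs (95.6 to 107 CPM). Lyz2 thus separated the Inputs as labelled, while the gene counts of Ythdf2, the targeted gene, were not lower in cKO.

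The DRACH match nearest to the summit is shown for the 12 peaks with the largest enrichment, ranked by the lowest fold of their 3 WT Ctrl libraries, to show what lay under the strongest signal. DRACH stands for A, G or T, then A or G, then A and C, then A, C or T, and it was searched on the transcript strand within 50 bases of the summit. Each line gives 21 bases of GRCm38 from 5′ to 3′, with the match in capitals. Ptx3 held no match in this window.
Ccdc80 (chr16:45094177-45094197, plus strand): gaaactgcAGACAaatggaga
Sh2d1b1 (chr1:170277356-170277376, plus strand): tttaaacaTAACAaccctcca
Galnt3 (chr2:66124734-66124754, minus strand): cacctgggAGACTcgcagagg
Klf4 (chr4:55532113-55532133, minus strand): tggccatcGGACCtacttatc
Kif11 (chr19:37376457-37376477, plus strand): gcctgcgtGGACCtcggggac
Rhoh (chr5:65863707-65863727, plus strand): tccaacagTGACTcattggga
Cdr2 (chr7:120982165-120982185, minus strand): ctgctgcgGGACCtgcgtgtc
B3galt2 (chr1:143640912-143640932, plus strand): ctgctgctTAACAttgcagct
Tcf19 (chr17:35516295-35516315, minus strand): cctcatctTGACAgcctctgt
Mki67 (chr7:135716219-135716239, minus strand): cgctgactGGACCagctgagg
Hirip3 (chr7:126862574-126862594, plus strand): ctctgtcaTGACAcgtgtctc
Of these 11 matches 4 were GGACC, the form that was also the most frequent nearest match over all members (40, or 9.85% of those with a matched A within 50 bases). It was the nearest match in 13.1% of unmarked 5′ UTRs with one. Unmarked here means those of tested genes without a WT Ctrl peak found in all 3 libraries. The matched adenosine lay 1 base from the summit in Ccdc80 and Tcf19, and 47 bases from it in Kif11.

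Members in genes of known function, taken from gene lists of stress, immune and RNA-regulatory pathways, are shown in the same way.
Metrnl (chr11:121702603-121702623, plus strand): ccggacgcAGACCcggccgga
Brd2 (chr17:34119168-34119188, minus strand): ctcccggcGGACAgtgcagac
Brd2 (chr17:34118779-34118799, minus strand): ggcgcaggAGACAgcgttccc
Kdm2a (chr19:4396449-4396469, minus strand): tgattcagTAACTgtttcctc
Rpl27 (chr11:101442571-101442591, plus strand): ctcgagcaGGACCtccgggcc
Myc (chr15:61985702-61985722, plus strand): cctgcgacTGACCcaacatca
Junb (chr8:84978448-84978468, minus strand): cttcagggGGACCtttcccag
Ppp1r15b (chr1:133131618-133131638, plus strand): cgggaatcGGACTgcagtacc
Ythdc1 (chr5:86804454-86804474, plus strand): cgccggacGGACTgacggacg
Ccr2 (chr9:124103751-124103771, plus strand): cacaattcTAACAtagaacat
Tgfb1 (chr7:25687468-25687488, plus strand): tcccgcgaAGACTtcacccca
Runx1 (chr16:92696829-92696849, minus strand): ccagcagaAAACCagccaccg
GGAC was present in 5 of these 12 matches, and Ythdc1 and Ppp1r15b held GGACT, the most favoured form for the methyltransferase. Ythdf3 and Egr1 had no match in this window, and the 1 match of Ddit3 spanned an exon junction.

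The leading member was in Ccdc80, which encodes a secreted matrix protein, on chromosome 16 at 45093666-45094421, in exon 2 of its transcript. Its authors' fold was 44.0, 45.2 and 39.2 in WT Ctrl, and it stood at 36.7, 30.2 and 38.3 in cKO Ctrl. In the libraries labelled WT IR it was 38.1, 40.5 and 40.0, and in those labelled cKO IR 43.1, 44.9 and 46.2. All 12 libraries thus held this peak, with folds above those of every other member. Sh2d1b1, a signalling adaptor of lymphoid and myeloid cells, came next with 18, 18.8 and 16.3 in WT Ctrl, followed by Galnt3, an enzyme that starts O-linked glycosylation, with 18.7, 16.1 and 21.1. Klf4, a transcription factor of monocyte and macrophage differentiation, had 14.1, 14.2 and 13.9 in WT Ctrl and 18.7, 14.1 and 16.3 in cKO Ctrl. Kif11, the kinesin that separates spindle poles, had 13.8, 13.8 and 16.4 in WT Ctrl and 13.7, 16.1 and 13.9 in cKO Ctrl. Its folds in the libraries labelled WT IR were 8.67, 8.30 and 8.05, and in those labelled cKO IR 6.48, 8.56 and 6.85, so the 6 IR values lay below the 6 Ctrl values. Mki67, the proliferation marker, had 12.9, 13.9 and 17.2 in WT Ctrl, 15.9, 14.6 and 9.5 in cKO Ctrl, 12.4, 15.1 and 13.9 in the libraries labelled WT IR, and 8.71, 9.87 and 9.41 in those labelled cKO IR. Its values in labelled WT IR overlapped those in WT Ctrl, and its values in labelled cKO IR lay below them. Hirip3, a partner of the histone chaperone HIRA, showed 12.3, 12.8 and 12.7 in WT Ctrl, 12.9, 13 and 12.1 in cKO Ctrl, and 5.30 to 7.92 over the 6 IR libraries. These folds are the authors' ratios at the peak's summit and were not tested between groups. Cdr2 and Ptx3 were the only 2 of the 12 without a peak in every library: Cdr2 was found in 4 and Ptx3, a pattern-recognition molecule of the innate response, in 7 of the 9 libraries outside WT Ctrl.

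**Figure D1:**
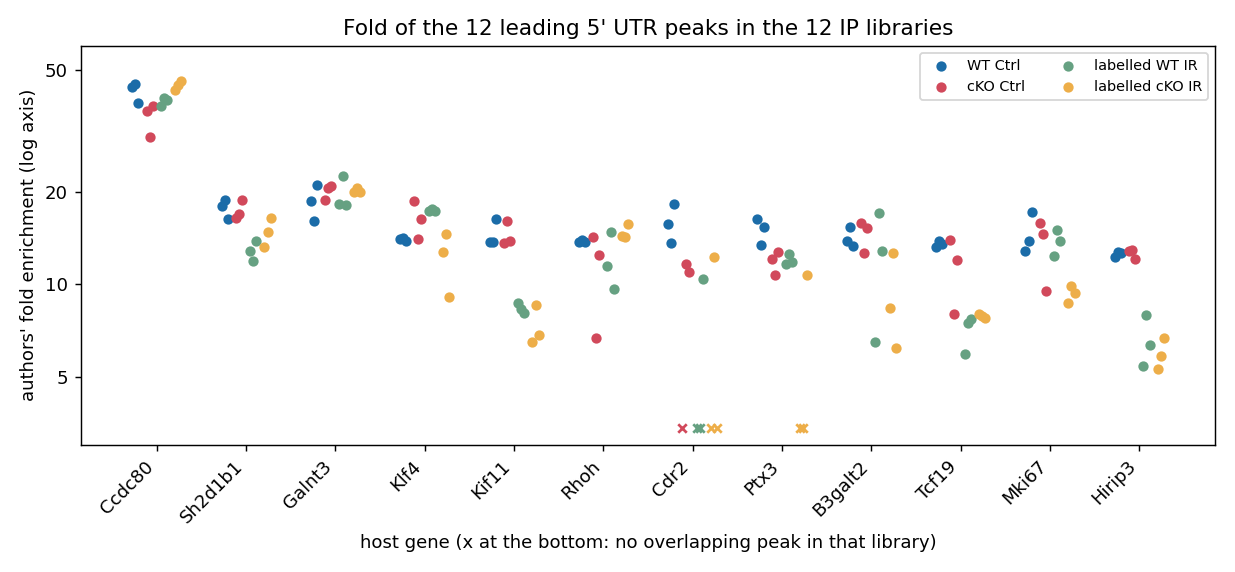
Authors' fold enrichment (log axis) of the 12 members with the largest lowest WT Ctrl fold, one point per IP library, coloured by group label, with a cross where a library had no overlapping peak. Ccdc80 stands between 30.2 and 46.2 in all 12 libraries, and the IR points of Kif11, Tcf19 and Hirip3 lie below their WT Ctrl points.

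Over all 492 members the lowest fold had a median of 3.34 (interquartile range 2.35 to 5.37), against 2.99 over all WT Ctrl peaks, and 201 members (40.9%) reached 4 or more in each WT Ctrl library, against 30.5% of all peaks. Fold took part in choosing the summit, so these values are a description. Summits sat in the part of the 5′ UTR near the start codon rather than at the cap. The median distance was 226 bases from the transcript start and 97.5 bases to the start codon, and the median position was 72.2% along the 5′ UTR. Peaks were at least 151 bases wide, distances were to annotated starts, and no expected position was set beside these values. Only 12 summits (2.44%) lay within 50 bases of the transcript start, and 66 peaks (13.4%) covered the start itself. Of these 12 summits 2 belonged to a transcript beginning with A, the base that can carry m6Am, and 134 of the other 480 (27.9%) did. Peaks covered the start codon in 270 cases (54.9%), and 251 summits (51.0%) were within 100 bases of it. Exon 1 held 319 summits (64.8%), and in 395 (80.3%) the start codon was in the same exon.

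**Figure D2:**
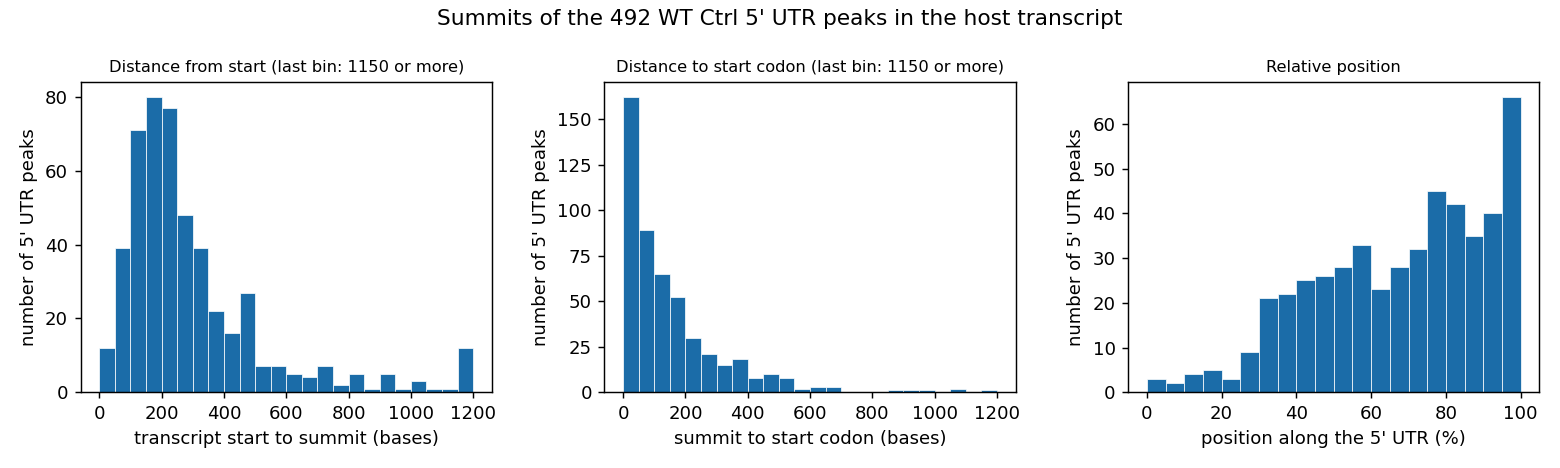
Number of members by distance from the transcript start to the summit, by distance from the summit to the start codon (bins of 50 bases, the last of each also holding larger values) and by position along the 5′ UTR (bins of 5%). Few summits lie in the first 50 bases of the transcript, and their number climbs towards the start codon.

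Host transcripts had long 5′ UTRs, as a rule that needs a summit inside one will favour. Their median length was 342 bases over the 466 genes, against 173 bases over the 12572 tested protein-coding genes with a 5′ UTR. An upstream ATG, a possible start site before the main reading frame, occurred in 350 hosts (75.1%) and in 51.6% of all these genes. Per 100 bases of 5′ UTR the difference was smaller, at 0.721 against 0.614 ATGs. The share of transcripts beginning with A was 27.3% in hosts and 25.3% in all. These host values are for a transcript that held the summit, and those of all genes for each gene's best-ranked transcript. On best-ranked transcripts, 462 hosts had a median of 326 bases, 72.7% had an upstream ATG, and ATGs numbered 0.705 per 100 bases. Few hosts had low expression, with 149 (32.0%) in the top 25% of tested protein-coding genes by WT Ctrl Input counts and 29 (6.24%) in the bottom 25%. Most hosts were marked elsewhere too. A peak near the stop codon or in the 3′ UTR was present in 302 (64.8%), a further 117 (25.1%) had another peak only in the CDS or an intron, and 47 (10.1%) had peaks in the 5′ UTR alone. Only WT Ctrl peaks found in all 3 libraries were counted here.

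GGAC, the core of the preferred methylation sequence, was counted in windows of 101 bases of spliced transcript around each summit. It occurred in 198 of 492 member windows (40.2%, Wilson 95% interval 36.0 to 44.6). Windows centred in the 5′ UTRs of 5911 tested genes without any WT Ctrl peak held it in 40.6%, and windows around stop codon, CDS and 3′ UTR peaks in 44.4%, 39.2% and 34.8%. Member windows could run past the start codon into coding sequence, since the lower quartile of the distance from summit to start codon was 36.0 bases. The unmarked windows lay wholly in the 5′ UTR, so the sets differ in sequence region as well as in having a peak. The intervals of members and of unmarked 5′ UTRs overlapped (39.3 to 41.8 in the latter), and the median GC content was 58.4% in members and 65.3% in unmarked 5′ UTRs. DRACH was found whole within 403 member windows (81.9%), in 70.8% of the unmarked 5′ UTR windows and in 90.7% of stop codon windows. The share of members with GGAC changed little with enrichment, from 39.2% of the 74 members with a lowest fold under 2 to 40.0% of the 55 members with 8 or more. Along the transcript, the 20 bases centred on the summit had a GGAC match in 7.99% of members, and bins 60 bases upstream and downstream had one in 12.6% and 13.6%. All the bins off the centre ranged from 9.09% to 14.0%, and differences between bins were not tested. In unmarked 5′ UTRs the central bin had 10.3%. A match is a description of the sequence, and no single adenosine is identified at this resolution.

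**Figure D3:**
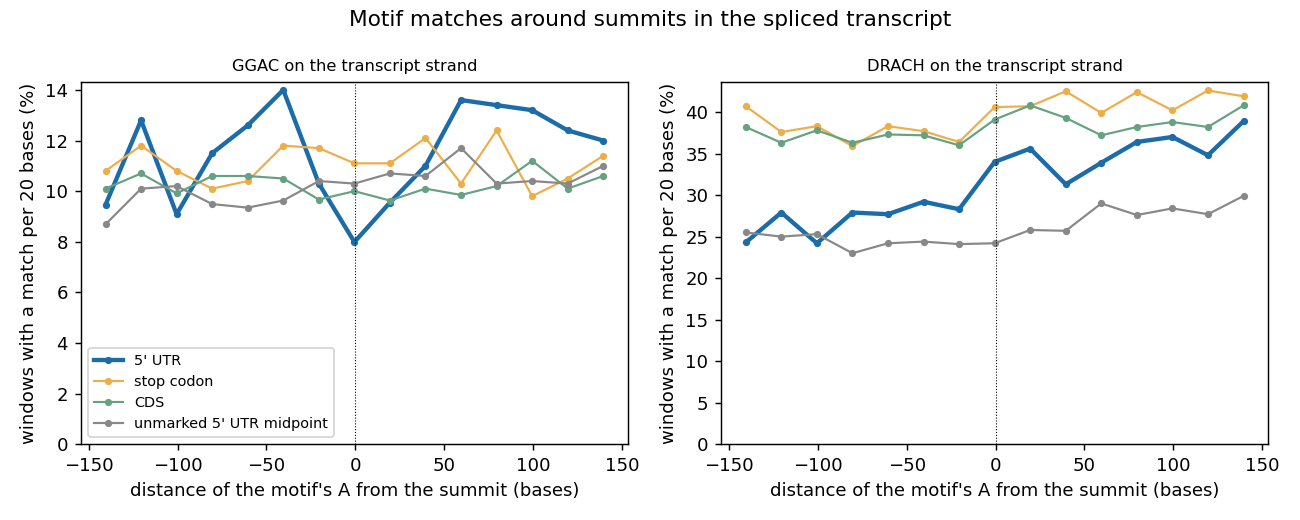
Percentage of windows with a GGAC (left) or DRACH (right) match per 20 bases of spliced transcript, by distance of the matched A from the summit. Lines are for members, stop codon and CDS peaks and, at the midpoint, unmarked 5′ UTRs. Unmarked are those of tested genes without a WT Ctrl peak found in all 3 libraries. The members' GGAC line varies between 7.99%, at the summit, and 14.0%. Near the summit their DRACH line lies between that of unmarked 5′ UTRs and those of the other peaks.

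The next comparison asked which members were found again in libraries that had no part in choosing them. In cKO Ctrl, 347 members (70.5%, Wilson 95% interval 66.4 to 74.4) overlapped a peak found in all 3 libraries, against 75.9% of all WT Ctrl peaks and 81.2% of stop codon peaks. The shares were 64.6% in the group labelled WT IR, against 65.3% of all peaks, and 53.3% in the group labelled cKO IR, against 58.0%. All 3 other groups held 213 members (43.3%), and the same number was found in each of the 9 other libraries. These intervals cover counting error only, since peaks of 1 library are not replicates. Where members were found again their summits were close, with a median shift of 4 bases in each group.

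Recovery was also read by enrichment. Of the 55 members with a lowest fold of 8 or more, 78.2% were in all 3 cKO Ctrl libraries and 52.7% in all 3 libraries of every other group, against 92.6% and 73.9% of the 666 WT Ctrl peaks of that fold. Among peaks with a lowest fold under 2 the corresponding shares in every other group were 39.2% of members and 36.2% of all. This difference between positions is a description and was not tested. Ergic2, which encodes a protein of the transport route between endoplasmic reticulum and Golgi, was a strongly enriched member without recovery. Its peak (chromosome 6, 148206565-148206720) had folds of 11.2, 10.9 and 10.5 in WT Ctrl and no counterpart in the other 9 libraries. Flrt3, an adhesion protein, was the only other member seen in no other library, with 4.09, 4.01 and 3.62. At the opposite end, the weakest members found in every group were Junb (1.51, 1.52 and 1.52 in WT Ctrl), Osbpl11 (2.84, 1.53 and 2.82), Tgfb1 (1.64, 1.60 and 1.67), Tifab (4.44, 1.61 and 4.0) and Runx1 (1.86, 2.16 and 1.64). Junb, an AP-1 subunit, held its low fold between 1.25 and 1.59 in all 9 other libraries.

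**Figure D4:**
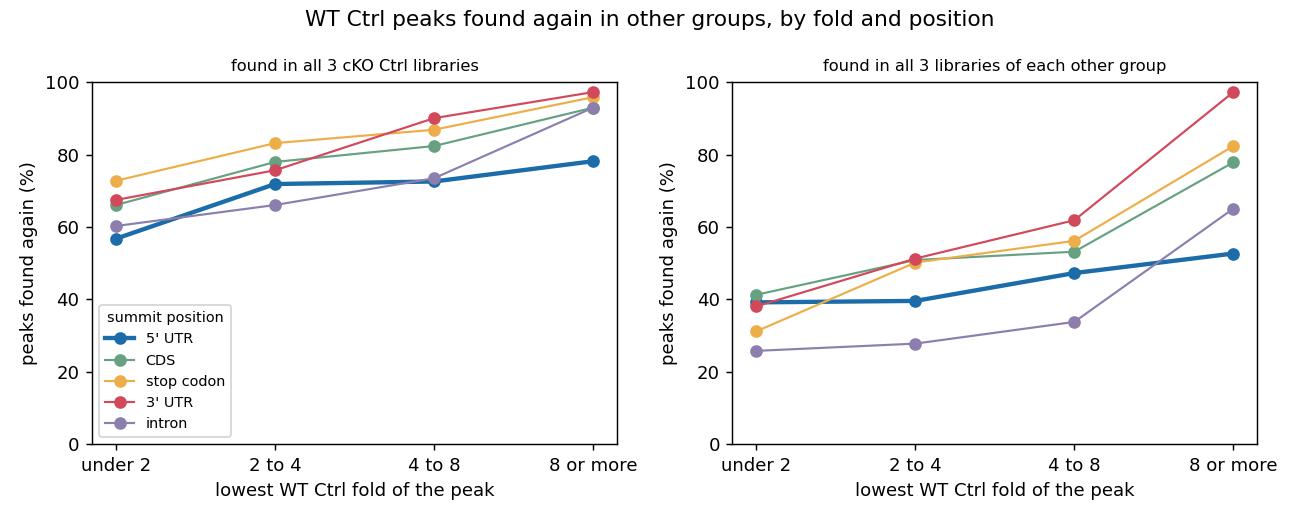
Percentage of WT Ctrl peaks found again in all 3 cKO Ctrl libraries (left) and in all 3 libraries of each of the other groups (right), by the peak's lowest WT Ctrl fold and the position of its summit. For the largest folds the 5′ UTR line ends at 78.2% and 52.7%, below the lines of the other positions.

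Members without a peak in any of 3 libraries numbered 32 (6.50%) in cKO Ctrl, 40 (8.13%) in labelled WT IR and 94 (19.1%) in labelled cKO IR. Over all 12181 WT Ctrl peaks the shares were 4.82%, 8.83% and 18.3%, so those of the members were near the background. From the 94, 4 are described here, chosen after their values were seen. Asf1b, a histone chaperone of S phase, had folds of 10.2, 10.8 and 11.9 in WT Ctrl, 12.3, 11.9 and 11.1 in cKO Ctrl and 9.12, 7.45 and 8.50 in the libraries labelled WT IR. Aurkb, a mitotic kinase, had 8.85, 8.97 and 8.48 in WT Ctrl and a peak in 2 of the libraries labelled WT IR, at 5.60 and 3.15. Cenpa, the centromeric histone, had 9.59, 8.97 and 8.12 in WT Ctrl, and Cep55, a component of the midbody, had 6.07, 5.52 and 5.81 and no peak in either IR group. The Input levels of these 4 genes were also lower after irradiation. Asf1b went from 10.8, 10.3 and 10.9 CPM to 4.30, 4.44 and 4.42 CPM in WT and from 10.9, 10.8 and 11.1 CPM to 6.58, 5.80 and 5.65 CPM in cKO, and Cep55 from 13.9, 16.3 and 12.6 CPM to 5.22, 4.80 and 4.98 CPM in WT. The 94 also held Gnas, Hspa5 and Pfn1 among others, and Input levels were not summarised over all of them. The part of transcript level in the absence of a peak was not tested.

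The share of summits in 5′ UTRs was compared per IP library. It was 3.85%, 3.64% and 4.22% in WT Ctrl, 3.34%, 3.68% and 3.51% in cKO Ctrl, 3.42%, 4.31% and 4.19% in the libraries labelled WT IR, and 3.01%, 3.50% and 3.72% in those labelled cKO IR. The groups overlapped. By label, IR minus Ctrl averaged -0.013 percentage points over the genotypes (two-sided exact permutation test within genotype, p = 0.935, 400 arrangements, smallest possible p 0.005). Removing single libraries turned the sign, as given with the other alternatives.

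Members on the gene lists were few, and the lists were made with earlier results in view. Among 20 tested immediate early and AP-1 genes 4 (20.0%) had a member, Egr1, Junb, Klf4 and Myc, against 3.63% of all 12822 protein-coding genes tested. The 82 cytosolic ribosomal protein genes had 1 (1.22%), Rpl27, and the 346 Zfp zinc finger genes had 12 (3.47%). Heat shock genes (12), interferon response genes (23), p53 targets (14), translation factors (19) and regulators of small GTPases and actin (22) had none. At the share over all genes, lists this short can easily hold none, so this describes only the listed genes. Irgm1 and Igtp, which are interferon-inducible, and Hspa5 were not on these lists and held members. The m6A machinery contributed the readers Ythdc1 and Ythdf3 (2 of 21), the integrated stress response contributed Ddit3 and Ppp1r15b (2 of 14), and the chromatin regulators contributed Brd2, with 2 members, and Kdm2a (2 of 27). Ccr2 and Tgfb1 (2 of 25 myeloid receptors and cytokines) and Runx1 (1 of 18 myeloid transcription factors) completed these. Ythdf3 had folds of 5.73, 6.67 and 6.09 in WT Ctrl and between 3.79 and 6.38 in the 9 other libraries, with no host call in any Input comparison. Myc had 9.56, 13 and 16.7 in WT Ctrl, a wide spread, and 16.2, 17.8 and 16.4 in the libraries labelled WT IR.

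On the list of NF-κB pathway genes, Metrnl, a secreted protein, held a member, and the study had singled it out from these samples, so it is not independent evidence. Its peak had folds of 2.38, 1.54 and 1.98 in WT Ctrl and 7.78, 3.96 and 6.36 in the libraries labelled WT IR. The folds in the libraries labelled WT IR lay above all WT Ctrl values, and cKO Ctrl had a peak in 2 libraries, at 1.56 and 4.55. The libraries labelled cKO IR had a peak in 2, at 1.59 and 3.41. In the Inputs, Metrnl was lower after irradiation in WT (log2 fold change -0.27, SE 0.04) and higher in cKO IR against WT IR (0.39, SE 0.04), both called.

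Host transcript levels were then compared in the Inputs, whose counts the rule did not use. A peak call needs reads in WT Ctrl and a control, so comparisons with the WT Ctrl Inputs are not fully independent of the rule. Those of cKO IR with cKO Ctrl and with WT IR hold no WT Ctrl library. A gene was called at an edgeR adjusted p under 0.05, with all 16090 genes in 1 fit, and 465 of the 466 hosts passed the count filter (Gm26938 did not). Values are for whole genes, and a change of a bulk level cannot tell fewer cells of a type from less RNA per cell. The 4 pairwise comparisons share control libraries, so their counts are given side by side.

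In WT, more hosts were lower after irradiation than higher. Of 465 hosts 166 (35.7%) fell in WT IR against WT Ctrl, where 17.0% of all genes were, and 47 (10.1%) were higher, where 14.7% of all were. The median log2 fold change was -0.08 in hosts and 0.01 over all genes. Genes with a peak near the stop codon or in the 3′ UTR and no 5′ UTR member had 31.5% lower and 10.2% higher. Hosts with 5′ UTR peaks alone had 6 of 47 lower and 6 higher. Kif11 stood at 32.4, 31.0 and 31.9 CPM in WT Ctrl and at 8.27, 9.81 and 9.49 CPM in WT IR (-1.79, SE 0.07, edgeR adjusted p 1.1e-13). Nuf2, a kinetochore component, fell by 1.80 (SE 0.08), and Lmnb1, a nuclear lamin, by 1.60 (SE 0.06). Ffar2, a receptor for short-chain fatty acids on neutrophils, went from 4.19, 3.50 and 4.19 CPM to 0.327, 0.196 and 0.483 CPM (-3.55, SE 0.29), and Nfe2, a haematopoietic transcription factor, from 19.3, 17.4 and 15.9 CPM to 5.86, 5.39 and 4.92 CPM (-1.70, SE 0.09). In the same Inputs the summed level of 5 neutrophil markers (S100a8, S100a9, Csf3r, Cxcr2 and Retnlg, none of them a host) went from 1544 to 1635 CPM in WT Ctrl to 318 to 359 CPM in WT IR, and no marker was at 0 in WT Ctrl. That of 5 monocyte markers went from 774 to 833 CPM to 242 to 301 CPM. Eosinophil markers went from 34.5 to 36.1 CPM to 8.30 to 10.1 CPM, platelet markers from 197 to 208 CPM to 274 to 302 CPM, and erythroid markers from 0.0556 to 0.147 CPM to 21.7 to 23.7 CPM. The part of these cell types in the host changes was not tested.

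The largest rises in WT IR were smaller. B3galt2, a galactosyltransferase, went from 1.47, 1.07 and 1.51 CPM to 3.08, 4.78 and 3.98 CPM (1.55, SE 0.17, edgeR adjusted p 3.4e-07). Cd80, a co-stimulatory ligand for T cells, rose by 0.83 (SE 0.08), Flrt3 by 0.73 (SE 0.05), Zbtb46, a transcription factor of classical dendritic cells, by 0.71 (SE 0.04), and Socs2, a feedback inhibitor of cytokine signalling, by 0.69 (SE 0.05). The 5 dendritic cell markers, of which Zbtb46 is one, stood at 44.6 to 46.6 CPM in WT Ctrl and 68.3 to 71.0 CPM in WT IR, and their part was not tested.

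In cKO, too, more hosts were lower after irradiation than higher. In cKO IR against cKO Ctrl 184 hosts (39.6%) were lower, where 23.8% of all genes were, and 123 (26.5%) higher, where 21.8% were. Over protein-coding genes the shares were 28.6% lower and 24.6% higher, so the share of hosts called higher was near theirs. Genes with a stop codon or 3′ UTR peak and no 5′ UTR member had 31.0% lower and 30.6% higher. Hosts with 5′ UTR peaks alone went the other way, with 17 of 47 higher and 11 lower (median log2 fold change 0.12). Ffar2 fell most, from 1.38, 1.49 and 2.1 CPM to 0.399, 0.772 and 0.331 CPM (-1.72, SE 0.28, edgeR adjusted p 4.3e-05). Mki67 fell from 273, 271 and 266 CPM to 102, 101 and 102 CPM (-1.41, SE 0.03, edgeR adjusted p 3.5e-17), Kif11 by 1.34 (SE 0.07) and Tpx2, a spindle assembly factor, by 1.23 (SE 0.05). B3galt2 again rose most, by 1.28 (SE 0.16), followed by Serpina3g, a protease inhibitor, at 0.78 (SE 0.11), and Cd80 at 0.78 (SE 0.08). Pigyl, with 5′ UTR peaks alone, rose by 0.71 (SE 0.06). Ccr2, the receptor that brings monocytes into tissue, was lower after irradiation in both genotypes, from 147, 146 and 155 CPM to 67.5, 86.7 and 78.1 CPM in WT and from 198, 203 and 192 CPM to 100, 93.5 and 91.1 CPM in cKO. It is itself 1 of the 5 monocyte markers, which summed to 648 to 684 CPM in cKO Ctrl and 384 to 392 CPM in cKO IR. The neutrophil markers went from 668 to 685 CPM to 297 to 314 CPM in the same Inputs, and the part of either cell type was not tested. Of the 4 immediate early hosts Egr1, Klf4 and Myc were called lower after irradiation in both genotypes, and Junb in neither (-0.00, SE 0.04 in WT). The WT values of Klf4 overlapped, with 13, 14.0 and 14.2 CPM in WT Ctrl and 14.0, 9.99 and 9.88 CPM in WT IR. Of the 12 Zfp hosts 3 were called higher and 0 lower in WT, and 3 higher and 6 lower in cKO.

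**Figure D5:**
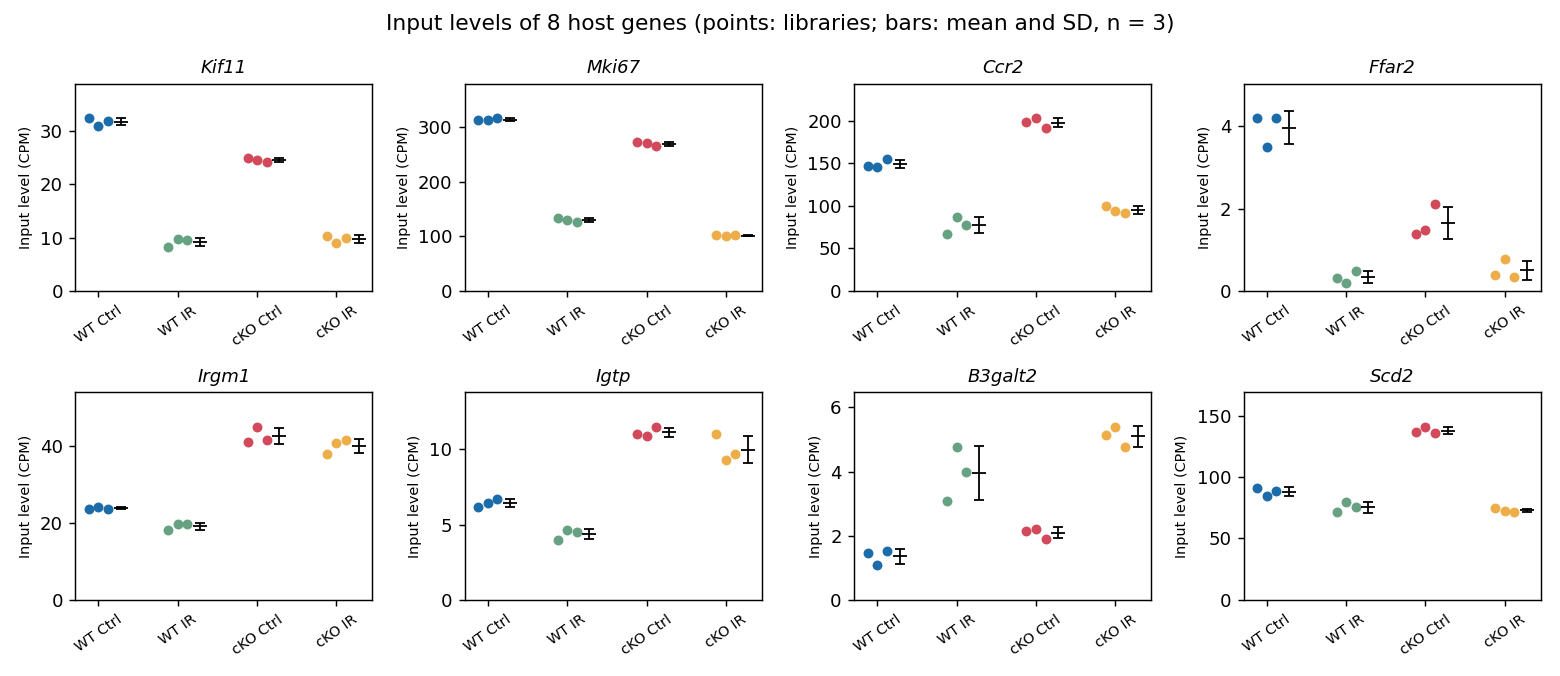
Input levels in CPM of 8 host genes in the 12 Input libraries (points), with the mean and SD of each group (n = 3). Kif11 and Mki67 are lower in both IR groups, Irgm1 and Igtp are higher in both cKO groups, and Scd2 is highest in cKO Ctrl.

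Without irradiation more hosts were higher in cKO than lower. In cKO Ctrl 81 hosts (17.4%) were higher than in WT Ctrl, where 8.05% of all genes were, and 31 (6.67%) lower, where 7.61% were. Over protein-coding genes 9.77% were higher and 8.40% lower. The changes were small, with a median of 0.05 and 1 host past a factor of 2. Genes with a stop codon or 3′ UTR peak and no 5′ UTR member had 14.1% higher and 6.01% lower. Irgm1 and Igtp, interferon-inducible GTPases of cell-autonomous immunity, rose most. Irgm1 went from 23.6, 24.1 and 23.7 CPM to 41.0, 44.9 and 41.6 CPM (0.84, SE 0.05, edgeR adjusted p 7.1e-10), and Igtp from 6.17, 6.47 and 6.70 CPM to 11.0, 10.9 and 11.5 CPM (0.79, SE 0.08). Scd2, a fatty acid desaturase, rose by 0.65 (SE 0.04) and Ptx3 by 0.54 (SE 0.04). Among the falls were Ffar2 (-1.26, SE 0.24), Nfe2 (-0.73, SE 0.09) and Il1r2, a decoy receptor for interleukin-1 (-0.73, SE 0.14). Neutrophil markers summed to 668 to 685 CPM in cKO Ctrl, less than in WT Ctrl, and their part was not tested. Irgm1 held 2 members. The one at chromosome 11, 48868643-48868873, had folds of 3.76, 4.04 and 7.74 in WT Ctrl and 4.06, 4.75 and 5.77 in the libraries labelled WT IR, and no peak in the other 6 IP libraries.

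The same direction held after irradiation. In cKO IR 186 hosts (40.0%) were higher than in WT IR, where 23.9% of all genes were, and 96 (20.6%) lower, where 23.8% were. Over protein-coding genes 27.6% were higher and 26.1% lower. Hosts with 5′ UTR peaks alone had 22 of 47 higher, and genes with a stop codon or 3′ UTR peak and no 5′ UTR member had 46.3% higher. Igtp (1.19, SE 0.09), Irgm1 (1.07, SE 0.06) and Chchd1, a mitochondrial ribosome component (0.96, SE 0.06), were among the largest rises, and Rpl27 was higher by 0.64 (SE 0.04). Itga1, a collagen-binding integrin (-0.71, SE 0.06), and Ndst1, a heparan sulfate enzyme (-0.66, SE 0.06), were among the largest falls. The interaction, which is the change with irradiation in cKO less that in WT, was called above 0 for 117 hosts (25.2%), where 15.0% of all genes were, and below 0 for 77 (16.6%), where 15.2% were. Over protein-coding genes 17.5% were above 0 and 18.2% below. Genes with a stop codon or 3′ UTR peak and no 5′ UTR member had 30.1% above 0 and 12.6% below, so the excess was not particular to hosts.

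Enrichment of whole transcripts by the antibody was tested in cKO Ctrl, whose libraries played no part in the rule. Of 465 hosts 429 (92.3%) were higher in IP than in Input, where 37.8% of 17373 genes were, with a median log2 ratio of 1.14 against 0.02. Over protein-coding genes 41.8% were higher. The share followed the other peaks of the gene. Hosts with a stop codon or 3′ UTR peak were enriched in 291 of 301 cases (96.7%), and genes with such peaks but no 5′ UTR member in 87.8%. Hosts with 5′ UTR peaks alone were enriched in 29 of 47 (61.7%) and depleted in 17 (36.2%), with a median of 0.34. The largest ratios were those of Ffar2 (6.04, SE 0.10), Cish, a feedback inhibitor of cytokine receptors (5.77, SE 0.07), Gpr171, an orphan-type receptor of immune cells (5.25, SE 0.07), and Ccdc80 (5.08, SE 0.07). Ccdc80 stood at 341, 359 and 349 CPM in the cKO Ctrl IP libraries on a scale set over all 24 libraries. Aunip (4.72, SE 0.13), Chn2 (4.31, SE 0.08), Galnt3 (4.30, SE 0.07) and B3galt2 (4.09, SE 0.10) followed, and all 8 had an edgeR adjusted p of at most 6.8e-26. Rpl27, with a 5′ UTR peak only, was lower in IP than in Input (-0.87, SE 0.04), and Tgfb1 (0.02, SE 0.03) and Runx1 (0.06, SE 0.03) were not called.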

How the data were processed

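m6A IP and Input libraries of 8 groups with 3 replicates each were analysed. Per its methods, adapters were removed by the authors with Trimmomatic 0.39, and HISAT placed the reads on mm10 by strand. Reads were counted per gene, and MACS2 called peaks per IP library and strand. The deposited gene values are raw counts, not normalized. The deposited peak lists give positions, the fold over control as a ratio, −log10 p-value and −log10 q-value, a score and the summit. Which Input served as control is not given in the sources used here. bedtools 2.26.0 and SAMtools are also named in the submitters' processing notes.

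Peaks were placed on GENCODE M21 protein-coding transcripts of GRCm38, and a host transcript was taken by APPRIS rank. Count identifiers carried another release, and all 466 host genes were matched without their version. Coordinates are 1-based. Gene counts were fitted with the quasi-likelihood test of edgeR 4.0.16 in R 4.3.3 (TMM, at least 10 counts in at least 3 libraries, Benjamini-Hochberg adjustment), the 12 Inputs in 1 fit and all 24 libraries in another for IP over Input. Replicate variation (common biological coefficient) over the Inputs was 5.57%. The SE of a log2 fold change was taken as its size divided by the square root of the F statistic of the test. On data simulated for WT IR against WT Ctrl, with 15597 genes in the step, 65 of 66 genes changed by 0.5 on the log2 scale were recovered, with 13 false calls. Changes were given only to genes with higher counts, and all genes had the same replicate variation. Recovery of weakly counted or more variable genes was therefore not tested. Intervals and depth cover counting error only. Motif windows came from GENCODE transcripts, and printed sites were read from the GRCm38 genome of RefSeq. Figures used matplotlib 3.10.9, and DESeq2 1.42.0 was an alternative.

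Named items were the 12 members of largest lowest WT Ctrl fold, members found in no other library, the 5 weakest found in every group, members on gene lists, up to 5 host genes per direction and Input comparison called without overlap between groups, the 8 largest IP over Input ratios, and the members next to the stop codon limit, with Ythdf2 and Lyz2 as checks. Sites on Zfp genes and on chromosome 18 were not printed. Peaks and lists were chosen with earlier results of these data known. The result of 1 member on a gene list is not reported here.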

Additional observations from a re-analysis of the deposited data

Results flagged for a closer look

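Host genes whose irradiation effect differed between genotypes were marked by the interaction term of the Input fit (edgeR adjusted p between 7.7e-08 and 0.0021 for the 10 genes given here). The change with irradiation in cKO less that in WT was 1.83 for Ffar2, 1.08 for Rgs18, 0.84 for Nuf2, 0.82 for Cdkn2d and 0.81 for Spc25 on the log2 scale. Nuf2 and Spc25 are partners in the NDC80 complex of the kinetochore, and Cdkn2d is an inhibitor of cyclin-dependent kinases. Nuf2 went from 17.4, 15.7 and 15.8 CPM in WT Ctrl to 4.35, 5.36 and 4.36 CPM in WT IR, and from 12.7, 13.1 and 12.8 CPM in cKO Ctrl to 6.61, 6.61 and 6.70 CPM in cKO IR, so it fell in both genotypes and fell further in WT. The difference was -0.73 for Zfp518b, -0.70 for Hr, -0.70 for Scd2, -0.56 for Dab2 and -0.51 for Kat6b. Scd2 stood at 91.3, 84.6 and 88.8 CPM in WT Ctrl, 71.3, 80.0 and 75.3 CPM in WT IR, 137, 141 and 136 CPM in cKO Ctrl, and 74.5, 72.7 and 71.8 CPM in cKO IR. The causes were not tested.

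Some 5′ UTR peaks outside the 492 members were found in all 3 libraries of another group and in no WT Ctrl library. There were 2 in cKO Ctrl, 25 in labelled WT IR and 8 in labelled cKO IR. Groups of 3 libraries are too small for a check on single outlying libraries.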

How the results depend on the processing

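Of the alternatives to the main settings, 97 values kept their direction and their side of the threshold or stayed within a set limit. That limit was 1.5 times for counts and the Wilson interval of the main value for shares without a test. This interval covers counting error only and does not measure the spread between replicates. A further 10 values moved and 4 turned sign. For single host genes, 594 of 600 values kept their direction and call. A fold of at least 4 in each library left 201 members, and leaving out 1 WT Ctrl IP library gave 522 to 557. Counting a peak in at least 1 library raised the share found again to 93.5% in cKO Ctrl, 91.9% in labelled WT IR and 80.9% in labelled cKO IR, and leaving out 1 library gave 72.2 to 76.2%, 67.1 to 75.4% and 56.3 to 60.8%. GGAC was in 19.5% of members with 25 bases to each side and in 70.3% with 100, where unmarked 5′ UTRs had 23.0% and 63.8%. Member windows could reach into coding sequence, and those of unmarked 5′ UTRs did not. With only the libraries of a comparison in the fit, host calls in cKO Ctrl against WT Ctrl rose from 112 to 164. The IR minus Ctrl share of 5′ UTR summits ranged from -0.097 to 0.125 percentage points without single libraries and was -0.124 for peaks of at least 4-fold. It turned positive without WT Ctrl replicate 3 (0.066), labelled WT IR replicate 1 (0.125), cKO Ctrl replicate 2 (0.029) or labelled cKO IR replicate 1 (0.088), and no p was under 0.480. Host calls without single libraries numbered 184 to 262 (213 with all) in WT IR against WT Ctrl, 273 to 281 (307) in cKO IR against cKO Ctrl, 83 to 91 (112) in cKO Ctrl against WT Ctrl, 252 to 286 (282) in cKO IR against WT IR, 166 to 230 (194) for the interaction and 426 to 429 (429) for IP over Input. Lamb3, B3galt2 and Mid1 each lost 1 call without 1 of 2 libraries. B3galt2 in cKO Ctrl against WT Ctrl had adjusted p 0.094 without WT Ctrl replicate 2 and 0.063 without cKO Ctrl replicate 2.

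Replicate numbers did not pair the libraries, since the deviations of same-numbered libraries correlated between -0.04 and 0.02. With a replicate block 211, 300, 103, 275 and 184 hosts were called in these Input comparisons in the same order, and 429 in IP over Input. Depth was even, and what limits these results is the width of a peak, counts per gene rather than per peak, and the labels of the IR IP libraries.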

Other observations

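The strongest 5′ UTR peak absent from WT Ctrl lay in Ythdf2 itself. It covered chromosome 4, 132211939-132212133 of GRCm38, with its summit 261 bases into the transcript, and its authors' fold was 16.5, 13.5 and 14.2 in the libraries labelled WT IR. No other group held a 5′ UTR peak there in all 3 libraries. Next in that group came Pomk, a kinase of the dystroglycan sugar chain, with 7.13, 7.73 and 8.24 in the libraries labelled WT IR and 8.75, 8.16 and 6.34 in cKO Ctrl. These are the groups whose IP libraries had the low Lyz2 level. In the group labelled cKO IR the leading peaks were in Rrbp1, a ribosome-binding protein of the endoplasmic reticulum (7.98, 8.01 and 9.22), and 9930111J21Rik2 (5.64, 5.21 and 6.79). Other genes marked in this way in the group labelled WT IR were Nek2, a mitotic kinase (6.65, 7.42 and 4.96), Scarb1, a lipoprotein receptor (5.21, 4.19 and 4.95), Mitf, a transcription factor of the endolysosomal system (3.28, 3.45 and 2.94), Nod1, a sensor of bacterial peptidoglycan (5.30, 3.20 and 2.31), and Tgfbr2, a receptor for TGF-β (2.14, 3.23 and 3.32). These genes were chosen after their values were seen, and no test compared the groups.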
